A study of Rattus norvegicus with 12 samples.

Results

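The genes described here are 10 direct transcriptional targets of p53: Cdkn1a, Mdm2, Ccng1, Bax, Sesn1, Sesn2, Gdf15, Bbc3, Phlda3 and Fas. They were listed by name, with earlier results of these data known, and 9 of the 10 symbols matched a row of the 32883 genes in the count table. Bbc3 matched none and was not analysed here. All 9 passed the filter on low counts, as did 14063 genes in all. RNA came from primary ventricular cardiomyocytes of newborn rats, harvested 2 days after an adenovirus had carried a gene into them, with 3 libraries in each of 4 groups. The control group received LacZ, a bacterial gene without a role in these cells. The other groups received human KAT6A, a histone acetyltransferase also called MOZ, as the wild-type protein (WT), as the acetylation-resistant mutant K815R or as the acetylation-mimetic mutant K815Q. All 12 libraries thus come from cells that carried an adenovirus, and no group without virus was analysed here. The labels do not say whether replicates came from separate cultures or litters, so the p-values measure the spread between these libraries, which may be technical.

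p53 is a transcription factor that damaged DNA, oncogenes and other stresses stabilise. It binds a paired response element and raises genes that stop the cell cycle (Cdkn1a), that restrain p53 in turn (Mdm2, Ccng1), that promote or block death and survival signals (Bax, Bbc3, Fas, Phlda3), that check growth and oxidant damage (Sesn1, Sesn2) or that are secreted as a stress signal (Gdf15). In cardiomyocytes the pathway is known for its part in withdrawal from the cell cycle, in death after injury and in the toxicity of anthracyclines. KAT6A has been described elsewhere as a partner of p53 at Cdkn1a, and its loss as a cause of senescence through Cdkn2a.

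The promoter sequences of these genes were read for close matches to the p53 element. RefSeq windows of 300 bases (250 before to 50 after an annotated start, rat assembly GRCr8) were found for 8 of the 10 members, in 9 windows. They were searched for the p53 response element, that is, 2 copies of its half-site consensus with no bases between them, allowing 1 of its 20 letters to depart; the consensus reads alike on both strands. It lay in 2 of the 9 member windows, those of Cdkn1a and Ccng1, and in 24 of all 33469 windows (0.0717%). The Cdkn1a site runs from 201 to 182 bases before the annotated start of its window and the Ccng1 site from 242 to 223, each with 1 departing letter. Whether these annotated starts are the main ones used in these cells was not tested. In the windows of Cdkn1a (chr20:7150682-7150981, plus strand) and Ccng1 (chr10:25684827-25685126, minus strand), capitals mark that site. The window of Phlda3 (chr13:49744753-49745052, plus strand), whose transcript set WT apart from the other groups, held no such match. Its capitals mark GC boxes (GGGCGG on either strand, some overlapping), of which it held 5, as did a window of Gdf15. At least 1 GC box lay in 7 of the 9 member windows and in 33.1% of all windows. The windows of Cdkn1a and Ccng1 are printed for their match and that of Phlda3 as the member called between forms of KAT6A. The window of Fas, which was called as well, held no p53 match and 1 GC box and is not printed. A match describes letters, not binding, and p53 elements known in introns or farther upstream lie outside such windows. The scan also misses elements with bases between the half-sites or with more than 1 departing letter. A window without a match may therefore still hold an element.
Cdkn1a: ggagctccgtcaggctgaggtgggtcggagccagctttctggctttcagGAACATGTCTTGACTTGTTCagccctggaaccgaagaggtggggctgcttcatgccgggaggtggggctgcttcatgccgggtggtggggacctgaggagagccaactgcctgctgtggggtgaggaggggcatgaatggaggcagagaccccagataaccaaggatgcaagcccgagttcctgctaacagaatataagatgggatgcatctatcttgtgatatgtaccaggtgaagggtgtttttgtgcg
Ccng1: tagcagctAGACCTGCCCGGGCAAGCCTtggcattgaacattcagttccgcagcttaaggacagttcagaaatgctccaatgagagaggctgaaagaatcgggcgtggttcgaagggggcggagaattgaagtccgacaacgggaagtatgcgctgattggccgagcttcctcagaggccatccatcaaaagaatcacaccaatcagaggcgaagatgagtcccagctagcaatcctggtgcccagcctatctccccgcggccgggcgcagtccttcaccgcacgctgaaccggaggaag
Phlda3: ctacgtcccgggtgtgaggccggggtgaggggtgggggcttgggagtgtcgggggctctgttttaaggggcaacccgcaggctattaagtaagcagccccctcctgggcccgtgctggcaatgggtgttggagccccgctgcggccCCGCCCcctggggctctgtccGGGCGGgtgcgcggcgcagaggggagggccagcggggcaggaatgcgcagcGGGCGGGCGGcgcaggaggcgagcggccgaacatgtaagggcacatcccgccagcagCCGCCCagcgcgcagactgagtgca

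The counts of all genes came to between 19102048 and 25451686 per library, and levels are given as CPM, counts scaled to a common library total with TMM. The lowest count of any member in any library was 219 (Fas), against a floor of 3 counts (0.118 to 0.156 CPM), so depth limited none of these levels. Rat Kat6a, the row that reads of the delivered gene can reach, stood at 45.2 to 53.6 CPM in LacZ, 82.0 to 106 in WT, 101 to 122 in K815R and 46.3 ± 3.35 (mean ± SD, n = 3) in the libraries labelled K815Q. The rise that the K815Q label calls for was thus not seen, and every direction for labelled K815Q rests on its label. Prkaa2, an AMPK subunit, moved with the groups as well, at 54.8 to 72.7 CPM in LacZ, 435 to 633 in WT, 78.1 to 95.4 in K815R and 1134 to 1232 in labelled K815Q; its part in the values below was not tested. All 10 cardiomyocyte markers were measured. Their summed level was 34428 to 35650 CPM in LacZ, 37136 to 37447 in WT, 35165 to 36874 in K815R and 35642 to 37793 in labelled K815Q. WT thus lay above LacZ without overlap. The 10 fibroblast markers summed to 11862 to 12736 CPM in LacZ, 11006 to 12061 in WT, 11112 to 11551 in K815R and 11958 to 12852 in labelled K815Q. Here K815R lay below LacZ without overlap. The part of these shifts in the values below was not tested. In bulk RNA, fewer cells of a type and less RNA per cell cannot be told apart.

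Cdkn1a, Phlda3, Fas and Gdf15 were lower with a form of KAT6A than with LacZ in at least 2 of the 3 comparisons without overlap of libraries, and the first 3 passed the test in at least 1. Cdkn1a fell in WT and in labelled K815Q, Phlda3 fell in WT, and Fas fell in K815R and in labelled K815Q. No member rose against LacZ. The changes were small, from 20.4% to 22.5% below the control. With p adjusted over all genes (edgeR, quasi-likelihood), 2 of 9 members were called in WT, both lower, where 5.34% of all tested genes were called and 3.39% were called lower. In K815R 1 of 9 was called, lower, beside 2.47% of all genes called and 1.74% lower. Among labelled K815Q libraries 2 of 9 were called, both lower, beside 7.85% and 4.98%. The median log2 fold change of the 9 members was -0.10 in WT, -0.10 in K815R and -0.08 in labelled K815Q, while that of all tested genes was 0.01, 0.00 and 0.01; 8, 7 and 6 of the 9 lay below 0, as did 47.6%, 48.8% and 48.3% of all genes. These 3 comparisons share the LacZ libraries, so their resemblance is no independent evidence.

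**Figure D1:**
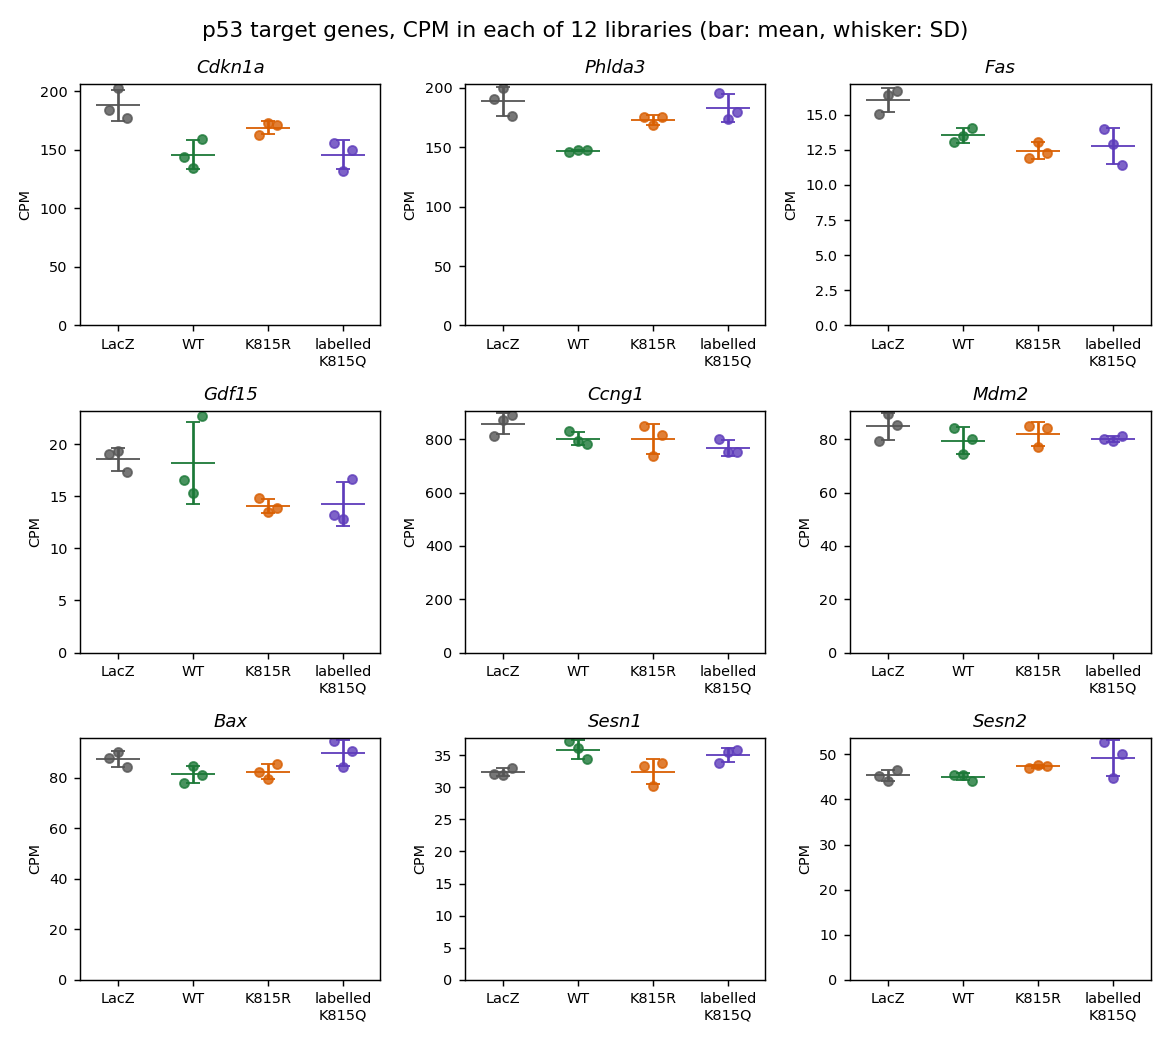
CPM of the 9 measured p53 target genes (y axis, from 0) in each of the 12 libraries, by group (x axis); points are libraries, the bar is the mean of 3 and the whisker the SD. The LacZ libraries of Cdkn1a (177 to 203 CPM) and Fas (15.1 to 16.7 CPM) lie above all libraries of the other groups, and the WT libraries of Phlda3 (146 to 148 CPM) lie below all others.

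Cdkn1a (ENSRNOG00000000521) encodes p21, an inhibitor of cyclin-dependent kinases and the best known arrest gene of the pathway. Its level was 184, 203 and 177 CPM in the LacZ libraries, 144, 135 and 159 with WT, 163, 173 and 171 with K815R, and 156, 132 and 150 with labelled K815Q. Every library labelled with a form of KAT6A was thus below every LacZ library, and K815R lay between LacZ and the other groups, overlapping neither. It fell by 22.3% in WT (log2 fold change -0.36, SE 0.0671, edgeR adjusted p 0.00235) and by 22.4% in labelled K815Q (-0.37, SE 0.0671, edgeR adjusted p 0.00207). In K815R the log2 fold change was -0.15 (95% interval -0.29 to -0.02, edgeR adjusted p 0.299), which was not called. Both calls were kept in each of the 6 leave-one-out fits, in which 1 library of the groups compared was dropped.

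The difference of K815R from the other forms was not called either. K815R stood above WT in Cdkn1a by a log2 fold change of 0.21 (edgeR adjusted p 0.128) and above labelled K815Q by 0.21 (edgeR adjusted p 0.198), with 95% intervals of 0.07 to 0.35 for both. So a lower Cdkn1a is not shown to be particular to WT and labelled K815Q. Those 2 groups stood at 146 ± 12.4 and 146 ± 12.2 CPM (mean ± SD, n = 3), and the interval of their difference ran from -0.14 to 0.14.

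Mdm2 and Ccng1 are the feedback genes: Mdm2 is the ubiquitin ligase that destroys p53, and Ccng1 encodes cyclin G1, which recruits a phosphatase that activates Mdm2. Neither passed the test in any comparison. Mdm2 (ENSRNOG00000006304) was at 79.4 to 89.5 CPM in LacZ, 74.3 to 84.2 in WT, 76.9 to 84.8 in K815R and 79.2 to 81.3 in labelled K815Q, so all groups overlapped. Its log2 fold changes against LacZ were -0.09, -0.05 and -0.08 in the same order, and no 95% interval reached below -0.21. Ccng1 (ENSRNOG00000003256), which shares with Cdkn1a the p53 element printed above, was at 813, 871 and 891 CPM in LacZ and at 802, 751 and 751 in labelled K815Q. These groups did not overlap, but the log2 fold change of -0.16 (SE 0.0557) was not called (edgeR adjusted p 0.0772). In WT and K815R it was -0.10 in both, with ranges of 782 to 831 and 737 to 848 CPM that reach above the lowest LacZ library. DESeq2 called the labelled K815Q value (adjusted p 0.0493).

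Among the genes of death and survival signals, Phlda3 was the one called between forms of KAT6A. Phlda3 (ENSRNOG00000009068) encodes a small pleckstrin-homology protein that keeps the kinase AKT from the membrane. It was at 190.5, 200.1 and 176 CPM in LacZ, 146, 148 and 147 with WT, 175, 168 and 176 with K815R, and 196, 174 and 180 with labelled K815Q. WT was below every other library, while labelled K815Q overlapped LacZ, and K815R lay just below it. In WT it fell by 22.0% (log2 fold change -0.36, SE 0.0538, edgeR adjusted p 2.22e-04), and the call was kept in each of the 6 leave-one-out fits. Against LacZ, K815R gave -0.13 (edgeR adjusted p 0.284) and labelled K815Q gave -0.04 (edgeR adjusted p 0.670).

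The forms were also compared directly. Phlda3 exceeded its WT level by 0.32 on the log2 scale (SE 0.0541, edgeR adjusted p 0.00384) in labelled K815Q, a call kept without any single library. It was higher by 0.23 (SE 0.0540, edgeR adjusted p 0.0240) in K815R. That second call was kept in 1 of 6 leave-one-out fits, the one without K815R replicate 2, and the 5 others gave values from 0.23 to 0.24 with edgeR adjusted p up to 0.0889. Phlda3 was the 1 member of 9 called in each of these comparisons, where 2.2% of all genes were called in K815R (1.32% higher, 0.882% lower) and 1.07% in labelled K815Q (0.718% higher, 0.356% lower). No member was called between K815R and labelled K815Q by edgeR, and DESeq2 called none. Of all genes, edgeR called 0.363% there, 0.149% lower and 0.213% higher. Without a filter on low counts edgeR called 1, Cdkn1a.

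Fas (ENSRNOG00000019142) encodes the death receptor CD95. It was at 15.1, 16.4 and 16.7 CPM in LacZ, 13.0, 13.5 and 14.1 with WT, 11.9, 13.1 and 12.3 with K815R, and 14.0, 12.9 and 11.4 with labelled K815Q. All 9 libraries labelled with a form of KAT6A were below the 3 with LacZ. It fell by 22.5% in K815R (log2 fold change -0.37, SE 0.0845, edgeR adjusted p 0.0187) and by 20.4% in labelled K815Q (-0.33, SE 0.0856, edgeR adjusted p 0.0210). In WT the value was -0.25 (SE 0.0847, edgeR adjusted p 0.0952). The calls rested on single libraries: 2 and 3 of 6 leave-one-out fits kept them. Without LacZ replicate 2 the adjusted p by edgeR was 0.0755 in K815R and 0.0781 in labelled K815Q, and without LacZ replicate 3 it was 0.0831 and 0.0913. It was also lost without K815R replicate 1 (0.0879) or replicate 3 (0.0780) and without K815Q replicate 3 (0.107), as edgeR adjusted p. The forms did not pass a test against each other, with differences of -0.12 for K815R minus WT, -0.08 for labelled K815Q minus WT and -0.04 for K815R minus labelled K815Q.

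Bax (ENSRNOG00000020876), which opens the outer mitochondrial membrane in apoptosis, was called in no comparison. It was at 84.2 to 90.3 CPM in LacZ, 78.0 to 84.9 in WT, 79.7 to 85.5 in K815R and 84.3 to 94.6 in labelled K815Q, with all groups overlapping LacZ. Its log2 fold changes against LacZ were -0.10, -0.08 and 0.04, with 95% intervals that together ran from -0.21 to 0.15.

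**Figure D2:**
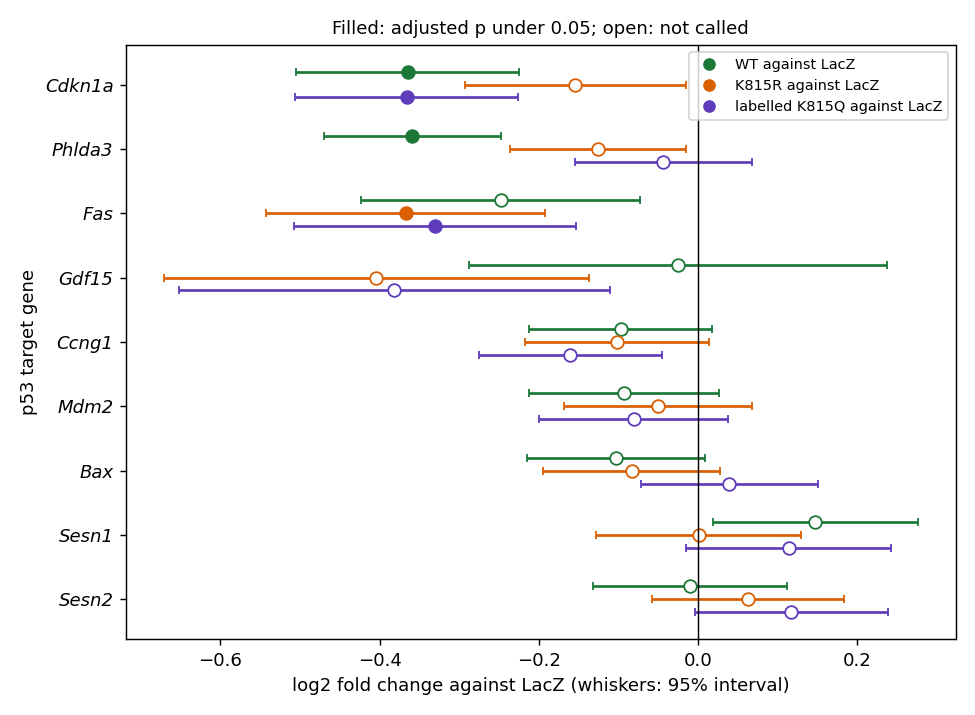
Log2 fold change against LacZ (x axis) of the 9 p53 target genes (y axis) in WT, K815R and labelled K815Q; whiskers are 95% intervals, unadjusted for the number of genes, and filled points passed the adjusted test. The 5 filled points are Cdkn1a in WT and labelled K815Q, Phlda3 in WT, and Fas in K815R and labelled K815Q, all between -0.37 and -0.33.

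Gdf15 and the sestrins are p53 targets that ATF4, the factor of the integrated stress response, also raises in the case of Gdf15 and Sesn2. Gdf15 (ENSRNOG00000019661) encodes a secreted stress cytokine made by injured heart muscle. It was at 19.0, 19.3 and 17.3 CPM in LacZ, 16.5, 15.3 and 22.7 with WT, 14.8, 13.4 and 13.9 with K815R, and 13.2, 12.8 and 16.7 with labelled K815Q. The K815R and labelled K815Q libraries were below LacZ without overlap, and WT replicate 3 was the highest of the 12. The log2 fold change was -0.40 (SE 0.126, edgeR adjusted p 0.121) in K815R and -0.38 (SE 0.128, edgeR adjusted p 0.0778) in labelled K815Q, neither called, and -0.02 (95% interval -0.29 to 0.24) in WT. Fits of only the 6 libraries compared called both, with edgeR adjusted p of 0.0109 and 0.0226. Without WT replicate 3 the WT value was -0.22. In RefSeq the span of Gdf15 overlaps that of Lrrc25, and since the strand setting of the counting is not given in the sources used here, its count is uncertain. The same holds for Phlda3 (the pseudogene Rpl11-ps12), Sesn2 (a long non-coding RNA) and Fas (a small nuclear RNA).

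Sesn1 and Sesn2 encode sestrins, leucine-sensing inhibitors of mTORC1 that also activate AMPK. Sesn1 (ENSRNOG00000000302) was at 32.1, 32.0 and 33.1 CPM in LacZ, 37.2, 36.1 and 34.4 with WT, 33.3, 30.2 and 33.8 with K815R, and 33.8, 35.5 and 35.8 with labelled K815Q. WT and labelled K815Q lay above LacZ without overlap, the direction opposite to that of Cdkn1a. None of this was called: the log2 fold changes were 0.15 (SE 0.0622, edgeR adjusted p 0.183) and 0.11 (SE 0.0624, edgeR adjusted p 0.269), and 0.00 in K815R. Sesn2 (ENSRNOG00000042785) was at 44.2 to 46.5 CPM in LacZ, 44.2 to 45.5 in WT, 47.0 to 47.6 in K815R and 44.8 to 52.7 in labelled K815Q. Its log2 fold changes were -0.01, 0.06 and 0.12, with the largest at an edgeR adjusted p of 0.223.

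Counting libraries rather than calls, 3 of 9 members in WT lay below LacZ without overlap, as did 12.3% of all tested genes. In K815R and in labelled K815Q 4 of 9 did, beside 9.6% and 14.5% of all genes. On the higher side 1 of 9 lay above LacZ in each comparison, beside 12.3%, 9.11% and 13.9% of all genes. Between forms, K815R lay below WT in 2 members (Sesn1 and Gdf15; 9.48% of all genes) and above it in 3 (Cdkn1a, Sesn2 and Phlda3; 9.49%). Labelled K815Q lay above WT in 1, Phlda3 (9% of all genes), and below it in 0 (10.3%). K815R lay above labelled K815Q in 1, Cdkn1a (8.28%), and below it in 0 (7.69%). When all groups were tested together, Phlda3 (edgeR adjusted p 5.41e-04), Cdkn1a (0.00219) and Fas (0.0204) were called, 3 of 9, beside 8.13% of all genes. Gdf15 was next, at an edgeR adjusted p of 0.0647.

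The wider pathway was read from a list of 40 other p53 targets, of which 39 matched a row and 36 were tested. Against LacZ, 6 fell and 0 rose in WT, 3 fell and 0 rose in K815R, and 8 fell and 1 rose in labelled K815Q; the median log2 fold changes were -0.11, -0.04 and -0.06. Across all genes the share called lower was 3.39% in WT, 1.74% in K815R and 4.98% in labelled K815Q, and the share called higher 1.95%, 0.74% and 2.87%. The largest falls among those called were in Pml, Psrc1, Eda2r and Zmat3. These counts depended on single libraries: the WT count of 6 was 1 without WT replicate 2 and 3 without WT replicate 1 or LacZ replicate 3. The K815R count of 3 was 1 without K815R replicate 1 or LacZ replicate 3. The count of 9 in labelled K815Q was 3 without K815Q replicate 1, and 5 without LacZ replicate 2 or 3. All genes called fell in such fits too, from 751 to 379 in WT without WT replicate 2. In labelled K815Q they fell from 1104 to 360 without K815Q replicate 1. The list counts also rose in places, to 11 in labelled K815Q in a leave-one-out fit and to 7 in K815R without a filter on low counts.

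Pml, the scaffold of nuclear bodies, changed most and did so against LacZ in all comparisons. It was at 33.5, 41.7 and 37.6 CPM in LacZ, 23.1, 19.5 and 24.4 with WT, 24.1, 26.8 and 20.6 with K815R, and 18.8, 20.2 and 19.6 with labelled K815Q. Its log2 fold changes were -0.75, -0.65 and -0.94, with edgeR adjusted p of 1.15e-04, 6.66e-04 and 1.19e-05, and each call was kept in each of the 6 leave-one-out fits. Pml is also a gene that interferon raises, and the type I interferon list lay beside it: 25, 24 and 25 of its 25 tested genes fell. The summed level of that list was 1100 to 1655 CPM in LacZ, 357.9 to 529.9 in WT, 503.0 to 580.5 in K815R and 333.9 to 401.4 in labelled K815Q. Leading falls in it were those of Oas1a, Oas2, Mx2 and Isg15, with log2 fold changes of -3.48, -3.78, -3.41 and -3.26 in labelled K815Q. The part of interferon in the values of Pml, and of Fas, which interferon can also raise, was not tested.

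Zmat3, an RNA-binding growth suppressor, was at 7.04 to 8.44 CPM in LacZ and between 4.82 and 6.27 in all other libraries. It fell in all 3 comparisons (log2 fold changes -0.48, -0.50 and -0.50, edgeR adjusted p 0.0238, 0.0287 and 0.0172), and 2, 2 and 3 of 6 leave-one-out fits kept it. Eda2r, a receptor of the TNF receptor family, fell in labelled K815Q, from 4.54 ± 0.232 to 2.82 ± 0.0525 CPM (mean ± SD, n = 3; edgeR adjusted p 0.0213). Psrc1, a mitotic spindle protein, fell there from 3.98 ± 0.840 to 2.44 ± 0.315 CPM (mean ± SD, n = 3; edgeR adjusted p 0.0136). Leave-one-out fits kept these calls 2 and 4 times of 6. Sertad1 and Dram1 are named after their values were seen. Sertad1, which activates cyclin D complexes, was the 1 that rose, by a log2 fold change of 0.41 in labelled K815Q (edgeR adjusted p 9.74e-04), and kept its call in all 6 leave-one-out fits. Dram1, a lysosomal inducer of autophagy, was lowest in WT, as Phlda3 was: 6.39 to 6.62 CPM in WT, 7.75 to 9.14 in LacZ, 8.32 to 9.01 in K815R and 8.23 to 9.85 in labelled K815Q. K815R exceeded WT in it by 0.40 (edgeR adjusted p 0.0451), which no fit without a library kept, and labelled K815Q by 0.47 (edgeR adjusted p 0.0253), which 1 of 6 kept.

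**Figure D3:**
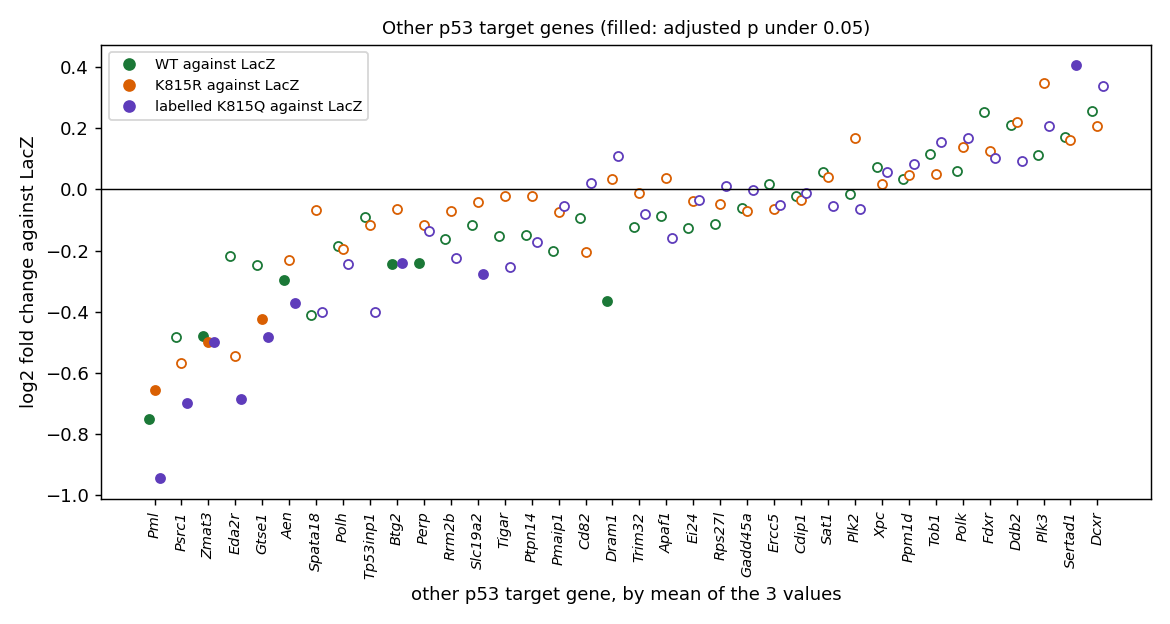
Log2 fold change against LacZ (y axis) of 36 other p53 target genes (x axis, ordered by the mean of their 3 values) in WT, K815R and labelled K815Q; filled points passed the adjusted test. Pml lies lowest, at -0.75, -0.65 and -0.94, and of the filled points Sertad1 in labelled K815Q, at 0.41, alone lies above 0.

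Mdm4, the partner of Mdm2 that masks the activation domain of p53, was at 16.7 to 20.6 CPM over all libraries and was called nowhere. Of 22 listed regulators of the pathway, 17 were tested. Against LacZ 1 rose and 1 fell in WT, and 1 rose and 0 fell in each of the other comparisons. Of all genes, 1.95% in WT, 0.74% in K815R and 2.87% in labelled K815Q were called higher, and 3.39%, 1.74% and 4.98% lower.

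The regulator that rose was Cdkn2a, whose products p16INK4a and p19ARF hold back CDK4/6 and Mdm2. It was at 2.63 to 2.91 CPM in LacZ and between 3.60 and 4.69 in all 9 other libraries, without overlap. The log2 fold changes were 0.48 in WT, 0.57 in K815R and 0.56 in labelled K815Q, with edgeR adjusted p of 0.0423, 0.0241 and 0.0151. These calls were weak: 0, 1 and 4 of 6 leave-one-out fits kept them, and DESeq2 kept the last alone (its adjusted p was 0.154 in WT and 0.0886 in K815R). Counts do not tell the 2 products apart. Hdac1, a deacetylase of p53, fell in WT by 0.19 on the log2 scale (edgeR adjusted p 0.0358), a call kept in 1 of 6 such fits.

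Genes of proliferation lay lower in each group labelled with a form of KAT6A, as Cdkn1a did. Of 24 tested cell cycle genes, 11 fell in WT, 11 in K815R and 15 in labelled K815Q, and 0 rose; the medians were -0.28, -0.36 and -0.36. Of all genes, 3.39%, 1.74% and 4.98% were called lower and 1.95%, 0.74% and 2.87% higher. Among them Ccnb1, the mitotic cyclin B1, had log2 fold changes of -0.47, -0.52 and -0.47, and Aurka and Plk1, mitotic kinases, -0.44, -0.51 and -0.53, and -0.38, -0.51 and -0.36. Rrm2, of the ribonucleotide reductase, was lowest of those called, at -0.70 in labelled K815Q. In WT, K815R and labelled K815Q, leave-one-out fits kept the call of Ccnb1 3, 3 and 3 times of 6, that of Aurka 1, 3 and 5 times and that of Plk1 1, 5 and 1 times, and they kept that of Rrm2 3 times. The counts rested on single libraries. The WT count was 0 without WT replicate 2, 1 without LacZ replicate 2, 3 without WT replicate 1 and 4 without LacZ replicate 3. The K815R count was 1, 2 and 3 without K815R replicate 1, K815R replicate 2 and LacZ replicate 2, and the labelled K815Q count was 5, 5 and 9 without LacZ replicate 2, K815Q replicate 1 and K815Q replicate 2. All genes called fell too, for instance from 751 to 379 in WT without WT replicate 2. With all libraries and other settings the list counts were 10 to 13 in WT, 10 to 13 in K815R and 13 to 19 in labelled K815Q. The summed level of the list was 550.8 to 628.5 CPM in LacZ and 433.6 to 521.6 in all other libraries.

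The ATF4 list, which shares Gdf15 and Sesn2 with the members, gave calls mostly on the higher side. Of its 18 tested genes, 3 rose and 1 fell in WT, 0 changed in K815R, and 4 rose and 0 fell in labelled K815Q. Of all genes 1.95%, 0.74% and 2.87% were called higher and 3.39%, 1.74% and 4.98% lower in these comparisons. Slc7a11, the cystine carrier, rose in WT (0.55) and Trib3, a pseudokinase, in labelled K815Q (0.45). Chac1, which degrades glutathione, rose in WT (0.54). Cebpb, a bZIP factor, fell in WT (-0.37) and rose in labelled K815Q (0.21), all as log2 fold changes called by edgeR. Leave-one-out fits kept the Chac1 call 2 times of 6 (edgeR adjusted p up to 0.113) and the Cebpb call in labelled K815Q 1 time of 6 (up to 0.203, without LacZ replicate 3); they kept the calls of Slc7a11, Trib3 and Cebpb in WT 6 times of 6.

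Markers of other cells were read beside these results. Summed macrophage and leukocyte markers were 77.5 to 99.0 CPM in LacZ, 99.9 to 106.5 in WT, 101.4 to 107.9 in K815R and 103.8 to 113.3 in labelled K815Q, with 1 of 10 called higher in each comparison and 1 lower in the last. Schwann and neuronal markers summed to 25.6 to 26.8 CPM in LacZ and 31.4 to 43.4 in the others, with 2, 1 and 1 of 3 tested genes called higher. Erythroid markers summed to 4.75 to 11.2 CPM, with 1, 0 and 1 of 2 tested genes called lower. Cardiomyocyte markers gave 2, 0 and 1 of 10 higher and 0 lower. Of 10 fibroblast markers 1 was called higher and 1 lower in WT, 0 in K815R, and 2 higher in labelled K815Q. Smooth muscle and pericyte markers gave 0, 0 and 1 of 8 higher, and of 9 endothelial markers 0 were called against LacZ by edgeR. The shares of all genes called higher were 1.95% in WT, 0.74% in K815R and 2.87% in labelled K815Q, and those called lower 3.39%, 1.74% and 4.98%. No listed marker was at or under the floor of 3 counts in every library, except 1 neuronal marker, Th. Their part in the p53 target values was not tested.

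As a description of what Cdkn1a resembled, genes were ranked by the root mean square distance of their centred log2 CPM from that of Cdkn1a over the 12 libraries. Genes without a symbol, or with a provisional one (AABR, AC and a digit, LOC or RGD), were left out of this choice. The 5 nearest of the rest were Acss2, Igsf8, Ephx1, Aen and Fads2, at distances of 0.0654 to 0.0743. The spread of Cdkn1a itself was 0.176. One of them, Aen, is a nuclease on the list of other p53 targets. It was at 39.1 to 40.4 CPM in LacZ, 30.4 to 33.8 in WT, 32.0 to 35.4 in K815R and 29.3 to 32.7 in labelled K815Q. Its log2 fold changes were -0.30 (edgeR adjusted p 0.00662), -0.23 (0.0527) and -0.37 (9.44e-04). Among the members, ranked with no gene left out, Mdm2 came nearest to Cdkn1a, at a distance of 0.148 and rank 773. Phlda3 (0.150) and Ccng1 (0.152) were close behind. Sesn1 was farthest, at 0.246 and rank 9129 of the 14063 tested genes. The distance is not scaled to a gene's own spread, so a gene with no change at all would lie at 0.176. A low rank therefore does not show that a member followed Cdkn1a.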

How the data were processed

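RNA from 12 libraries was made after poly(A) selection and sequenced as single reads from a directional kit, per the labels' protocols. The authors deposited raw read counts per Ensembl rat gene, not normalized. The submitters' processing notes name Trimmomatic 0.39, HISAT2 2.2.1, HTSeq 0.6.1, edgeR and the build Rnor_6.0; the strand setting is not given in the sources used here. The 5 counter lines that name no gene stayed out of library sizes and tests: reads with several alignments made up 25.6% to 26.9%, reads in no feature 11.7% to 12.9%, unaligned reads 2.69% to 3.06% and ambiguous reads 0.461% to 0.50%. Counts therefore hold only reads placed in 1 gene.

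Groups came from the sample titles. Replicates differed by more than sampling noise (chi-square per degree of freedom 4.54 to 8.74), so each was kept. Counts were filtered with filterByExpr (minimum count 10, minimum total 15), scaled by TMM and tested in edgeR 4.0.16 (R 4.3.3) by the robust quasi-likelihood test, in 1 model of 4 group means, with Benjamini-Hochberg adjustment over all 14063 genes and calls below an adjusted p of 0.05. A common dispersion gave a biological coefficient of variation of 0.0581. The SE is the log2 fold change divided by the square root of F, and intervals are at 95%. The distance of profiles used log2 CPM with a prior count of 2. The procedure was run on simulated counts in which all genes shared the common dispersion and the changes set were larger than those called in members. It was therefore no check of calls on changes as small as these.

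Named genes were all members, Mdm4 and Kat6a, and, per list, up to 4 called genes with the largest change (marker lists are given as counts). An item that the rule also names is not reported here. The members and lists were chosen with earlier results of these data known. Promoter windows are RefSeq sequences of GRCr8, matched by symbol; as this is not the build of the counts, only they carry coordinates. Other settings tried were DESeq2 1.42.0, scaling by RLE or by the upper quartile, a missing or a stricter filter (10 counts in all libraries), a replicate block, fits restricted to the groups compared, and leave-one-out fits.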

Additional observations from a re-analysis of the deposited data

Results flagged for a closer look

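Phlda3 was called lower than LacZ in WT alone (log2 fold change -0.36). In K815R (-0.13, edgeR adjusted p 0.284) and labelled K815Q (-0.04, edgeR adjusted p 0.670) it was not called. Rat Kat6a was not raised in labelled K815Q (-0.05 against LacZ, edgeR adjusted p 0.815), so that group is a form of KAT6A by its label only. By direct tests Phlda3 differed between WT and each of these groups. It was higher than in WT by a log2 fold change of 0.32 in the libraries labelled K815Q (edgeR adjusted p 0.00384) and by 0.23 in K815R (edgeR adjusted p 0.0240), with the WT libraries at 146 to 148 CPM and all others at 168 CPM or more. The first call was kept in each of the 6 leave-one-out fits and the second in 1 of 6, with edgeR adjusted p up to 0.0889.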

How the results depend on the processing

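Of 702 recomputed fold changes of members (9 genes, 6 comparisons), 646 kept direction and call, 12 lost a call, 14 gained one and 30 changed sign; none of the 30 was called in the reported fit. Without a filter on low counts, members called were 2 (K815R) and 4 (labelled K815Q) against LacZ, 3 and 2 against WT and 1 between K815R and labelled K815Q. All genes called were then 600 for K815R against LacZ (reported fit 348), 553 and 423 against WT (309 and 151), 307 between the mutants (51) and 2036 for any difference (1143). Fits of only the 6 libraries compared called 2 members in K815R against LacZ, 3 in labelled K815Q, 219 genes for labelled K815Q against WT and 85 between the mutants. DESeq2 called 4 members in labelled K815Q against LacZ and 105 genes between the mutants. With the replicate number as a block, 3 members were called in labelled K815Q against LacZ, among them Gdf15 (edgeR adjusted p 0.0408), and 4 for any difference. All genes called were then 232 for labelled K815Q against WT and 86 between the mutants. The total of all genes called moved with the setting as well. Leave-one-out fits aside, it ranged from 1005 to 1528 in labelled K815Q against LacZ (reported fit 1104). In K815R against LacZ it ranged from 315 to 600 (348), and for any difference from 1125 to 2036 (1143). Deviations of same-numbered libraries correlated at -0.127 to 0.122 over 18 pairs (median 0.0063). Those of differently numbered libraries correlated at -0.129 to 0.145 over 36 pairs (median -0.0076). Same-numbered pairs among WT, K815R and labelled K815Q were all above 0, from 1.9e-04 to 0.122, while most of those with LacZ were below 0. The numbers were not taken as pairs in the reported fit, and whether they mark a batch shared by some groups was not tested.

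Leaving out 1 library gave 2 to 2 members called in WT against LacZ, 0 to 1 in K815R, 1 to 3 in labelled K815Q, 0 to 1 for K815R against WT, 1 to 1 for labelled K815Q against WT, 0 to 0 between the mutants and 2 to 4 for any difference. All genes called ranged from 378 to 639, 173 to 308, 360 to 1182, 124 to 177, 50 to 146, 11 to 98 and 650 to 1309 in that order. The lowest counts against LacZ came without LacZ replicate 2 (378), K815R replicate 1 (173) and K815Q replicate 1 (360).

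Values that crossed 0 lay close to it. With other settings Sesn1 in K815R against LacZ was -0.0015 (RLE), -0.0015 (no filter) and -0.0019 (DESeq2). Cdkn1a in labelled K815Q against WT was 0.0024 (RLE), 0.0017 (no filter), 0.0017 (stricter filter), 9.4e-04 (6 libraries) and 0.0025 (DESeq2), and Ccng1 in K815R against WT 0.0023 (no filter). Leaving out 1 library, ranges were -0.030 to 0.053 for Sesn1 in K815R, -0.22 to 0.082 for Gdf15 and -0.031 to 0.0062 for Sesn2 in WT, -0.095 to 2.3e-04 for Phlda3 in labelled K815Q, and -0.0083 to 0.088 for Mdm4 in K815R, all against LacZ. Against WT they were -0.048 to 0.052 for Ccng1, -0.0091 to 0.052 for Bax and -0.0022 to 0.088 for Mdm2 in K815R, and -0.055 to 0.066 for Cdkn1a and -0.034 to 0.056 for Mdm2 in labelled K815Q. Between the mutants they were -0.092 to 0.11 for Gdf15 and -0.11 to 0.032 for Fas. The causes of these changes were not tested.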
